A study of Mus musculus with 12 samples.

Results

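The lobule zonation markers described here are 10 hepatocyte genes whose transcripts are known to be unevenly spread between the central vein and the portal triad of the liver lobule. Of these, 8 mark the pericentral zone (Glul, Oat, Lhpp, Rgn, Slc1a2, Axin2, Cyp1a2 and Cyp2e1) and 2 mark the periportal zone (Cyp2f2 and Hsd17b13). They were taken by gene symbol from a table of 55367 symbols, and none of the 10 symbols was repeated in it. The samples were livers of Balb/c mice, all wild type and 6 weeks of age, 6 control and 6 with severe acute pancreatitis (SAP). The SAP mice had been given caerulein, a peptide that acts on cholecystokinin receptors and drives the pancreas to release its enzymes to excess. The sources used here give no dose, time of sampling or sex, and do not say whether the controls received a vehicle. The design text speaks of a pair of mouse models, while the sample labels give 1 strain, so whether every SAP mouse came from the same model is not known. Libraries keep their labelled numbers, control 3 to 8 and SAP 10 to 15. Expression was read as TPM, a transcript abundance corrected for gene length and scaled to a common total in each library, so sequencing depth is unknown.

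Blood enters the liver lobule at the portal triad and leaves at the central vein, and hepatocytes along this path differ in the enzymes they make. Endothelial cells of the central vein secrete Wnt ligands and R-spondins, and beta-catenin signalling in the neighbouring hepatocytes maintains the pericentral programme of glutamine synthesis and drug metabolism. Periportal hepatocytes carry much of the urea cycle, amino acid breakdown and gluconeogenesis. Bulk liver RNA has no positions, so the values below are levels of transcripts over the whole tissue and do not locate them in the lobule. In bulk samples, fewer cells of a type and less RNA per cell cannot be told apart.

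The promoters of 4 members are shown because these genes span the changes measured among the members. Axin2 was the member that rose, and Glul was the Wnt-dependent enzyme with a small fall. Cyp1a2 and Cyp2f2 had the largest falls among the members of their zones. The sequences run 5′ to 3′ on the gene's strand, from 250 bases before to 50 bases after the RefSeq start in GRCm38.p6, with each CG dinucleotide in capitals. Axin2 is at chr11:108920099-108920398 (plus strand), Glul at chr1:153899679-153899978 (plus), Cyp1a2 at chr9:57683606-57683905 (minus) and Cyp2f2 at chr7:27119705-27120004 (plus).
Axin2: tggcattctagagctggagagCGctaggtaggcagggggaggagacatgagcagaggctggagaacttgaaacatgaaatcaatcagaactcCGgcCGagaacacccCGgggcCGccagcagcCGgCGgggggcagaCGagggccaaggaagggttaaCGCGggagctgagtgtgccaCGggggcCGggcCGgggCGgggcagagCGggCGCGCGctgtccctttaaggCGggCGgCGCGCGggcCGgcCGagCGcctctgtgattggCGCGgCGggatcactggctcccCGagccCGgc
Glul: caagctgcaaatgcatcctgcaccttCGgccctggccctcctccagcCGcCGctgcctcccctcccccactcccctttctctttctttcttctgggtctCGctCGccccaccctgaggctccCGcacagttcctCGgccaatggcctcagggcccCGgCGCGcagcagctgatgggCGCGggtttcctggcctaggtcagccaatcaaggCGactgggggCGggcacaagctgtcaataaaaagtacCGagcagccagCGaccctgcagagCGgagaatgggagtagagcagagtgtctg
Cyp1a2: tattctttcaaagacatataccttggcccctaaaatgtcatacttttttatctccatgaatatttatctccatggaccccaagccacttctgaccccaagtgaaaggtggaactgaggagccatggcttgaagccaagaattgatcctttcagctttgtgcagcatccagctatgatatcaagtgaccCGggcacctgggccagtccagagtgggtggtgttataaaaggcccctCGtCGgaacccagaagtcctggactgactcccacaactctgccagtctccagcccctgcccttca
Cyp2f2: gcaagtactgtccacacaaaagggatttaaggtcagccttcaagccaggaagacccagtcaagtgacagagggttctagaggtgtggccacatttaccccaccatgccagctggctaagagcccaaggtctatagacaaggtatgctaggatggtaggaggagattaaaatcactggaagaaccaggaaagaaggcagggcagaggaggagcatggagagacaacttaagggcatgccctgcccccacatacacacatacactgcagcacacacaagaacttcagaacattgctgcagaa

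The table of promoters held 8 of the 10 members. Windows of Axin2 and Glul were rich in CG, with 31 and 17 dinucleotides, and that of Oat held 22. The windows of the other 5 members found held few: 4 in Cyp2e1, 3 in Cyp1a2, 3 in Hsd17b13, 1 in Slc1a2 and 0 in Cyp2f2. Among all 32851 promoters of the same length the median was 7, 31.4% held at least 17 and 38% held at most 4. The TATA box letters TATAAA were found on the gene's own strand at -29 to -24 in Cyp1a2 and at -31 to -26 in Cyp2e1, counted from the start site, and 13.6% of all promoters held them on either strand. The TCF/LEF letters CTTTGAT (3.73% of all promoters) were found in the Slc1a2 window alone, on the strand opposite to the gene at -207 to -201. That window also held the C/EBP letters TTGCNNAA (10.8% of all promoters) at -158 to -151. The RefSeq start of Slc1a2 lies inside the gene as GENCODE M21 draws it. The other motifs searched on both strands, HNF4 (CAAAGTCCA), HNF1 (GTTAATNAT), the aryl hydrocarbon receptor element (GCGTG) and STAT (TTCNNNGAA), had no match in the 8 windows, and 0.475%, 0.801%, 32.4% and 8.3% of all promoters held them. A match describes the letters only.

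In SAP livers 9 of the 10 markers were lower than in control livers and 1, Axin2, was higher, each past the threshold of an adjusted p of 0.05 in limma, a linear model fitted to all genes. None of the 10 had overlapping groups. The 11335 genes tested reached 1 TPM or more in 6 or more libraries. Over these genes 25.0% were lower, 19.5% were higher and 25.6% had groups that did not overlap. The median change of the members was -1.09 and that of all tested genes was -0.03. The members, and the gene lists used below, were chosen with earlier results of these data known. Their counts and medians beside those of all genes are therefore a description. All changes are SAP minus control on the log2(TPM + 1) scale, which understates the change of genes with low values. Errors of changes are standard errors (SE), and errors of levels are SD over 6 libraries.

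**Figure D1:**
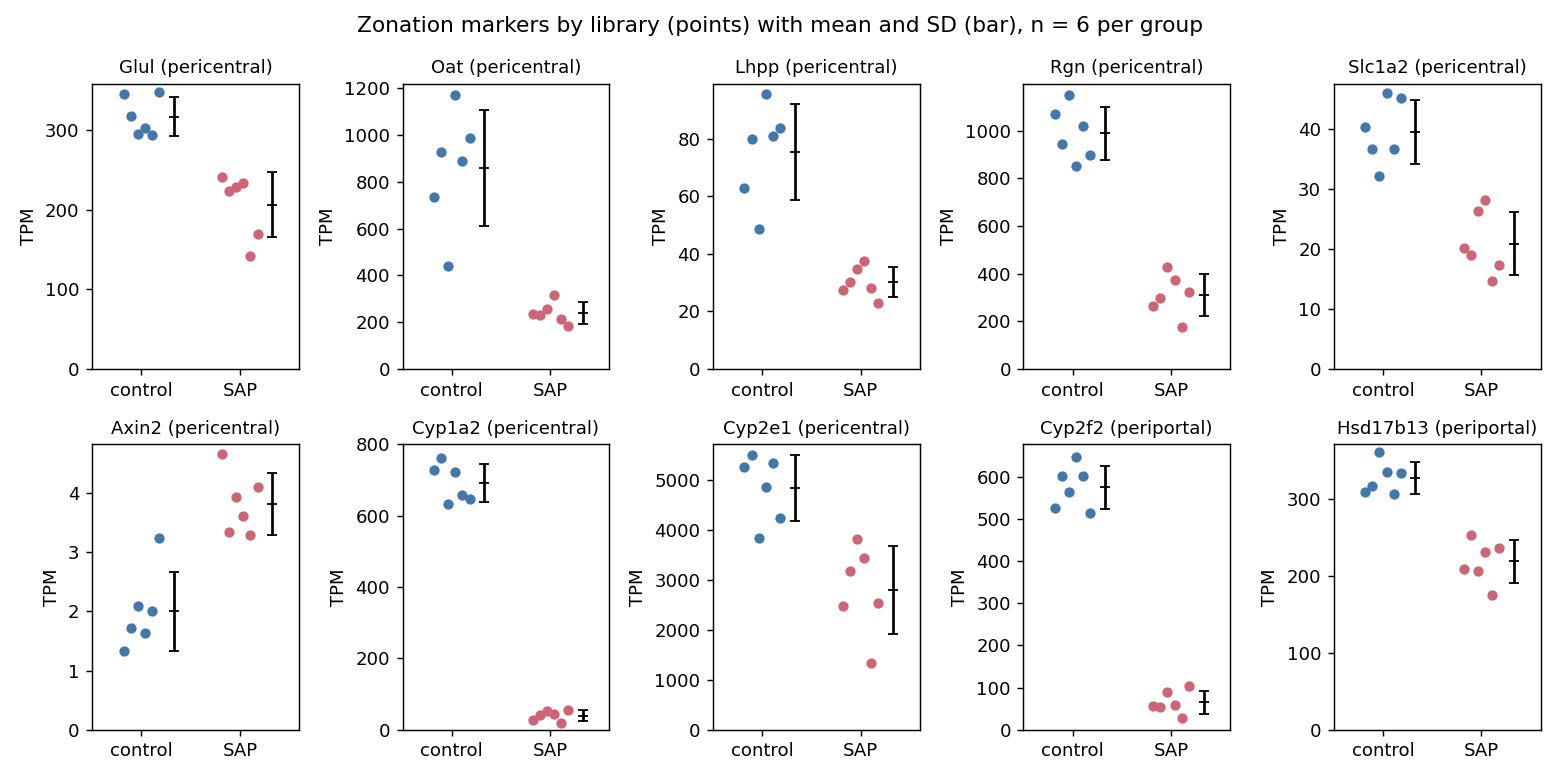
TPM of the 10 zonation markers in each of the 12 libraries, with control in blue, SAP in red, and a bar for the mean and SD of 6 libraries beside each group. Each axis starts at 0. In every panel the points of the groups do not overlap, and Axin2 is the panel in which SAP lies above control.

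Before the members are taken in turn, 3 features of the libraries are needed. Acute-phase proteins, which the liver secretes in inflammation, took 2.45 to 2.94% of TPM in the control libraries and 20.1 to 33.9% in the SAP libraries. Because TPM is a share, the genes outside the acute-phase list held a smaller part of the total in SAP. The median log2 change of all tested genes was -0.03 on the deposited scale. Whether the acute-phase rise lowered the values of single genes was not tested. With each library rescaled to its total outside the acute-phase list, the median change of all tested genes became 0.29, and 5999 genes were higher and 1277 lower. Xist, a transcript kept in the nucleus, was at 4.59 to 17.1 TPM in 5 libraries (control 5 and SAP 11, 13, 14 and 15) and at 49.1 to 60.7 TPM in the other 7. Malat1, also kept in the nucleus, was at 2.76 to 8.19 TPM in the same 5 libraries and at 26.2 to 40.1 TPM in the other 7. The cause of this split was not tested. Within the 7 high Xist libraries, 5 control and 2 SAP, none of the 10 members had overlapping groups and the same 9 were lower and 1 higher by limma. Among the low Xist libraries, control 5 lay outside the range of the 4 SAP libraries for all 10 members. The hepatocyte marker sum, led by albumin, was 93125 to 103920 TPM in control and 51759 to 67423 TPM in SAP. Albumin itself was at 65029 and 27673 TPM. In that list 1 of 7 genes rose and 3 fell, against 4 and 3 after rescaling and 2 and 5 under quantile normalization.

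Glul encodes glutamine synthetase, which captures ammonia in the last hepatocytes before the central vein. It lies at chr1:153899944-153909723 (GENCODE M21 on GRCm38, as are all gene positions here). Control libraries 3 to 8 held 345, 318, 295, 302, 294 and 348 TPM, and SAP libraries 10 to 15 held 241, 224, 229, 234, 142 and 169 TPM. Every SAP library lay below every control library, and SAP 14 and 15 lay well below the other 4. The mean went from 317 ± 24.3 to 206 ± 40.9 TPM, a log2 change of -0.64 ± 0.12 (95% interval -0.91 to -0.37, limma adjusted p = 9.42e-04). This call depended on scaling. Quantile normalization gave -0.25 (limma adjusted p = 0.0825), and rescaling outside the acute-phase list gave -0.26 (adjusted p = 0.0594), which is -0.55 relative to the shift of the median gene.

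Oat encodes ornithine aminotransferase, which feeds ornithine carbon towards glutamate, and lies at chr7:132557478-132576398. Its control values were 733, 928, 440, 1170, 887 and 988 TPM and its SAP values were 234, 231, 256, 318, 214 and 184 TPM. Control 5 was far below the other controls, yet above all SAP libraries. The mean went from 858 ± 249 to 239 ± 45.3 TPM, a log2 change of -1.79 ± 0.20 (limma adjusted p = 1.15e-05).

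Lhpp, a phosphatase that acts on phosphohistidine, is the neighbour of Oat on chromosome 7 (chr7:132610638-132706420), with 34239 bases between the gene models. The gene model of Fgfr2 overlaps both, on the strand of Oat, without overlap of exons. Fgfr2 had means of 202 TPM in control and 164 TPM in SAP. Lhpp held 63, 80, 48.6, 95.5, 81 and 83.7 TPM in control and 27.3, 30.2, 34.7, 37.5, 28.1 and 23 TPM in SAP. The mean went from 75.3 ± 16.7 to 30.1 ± 5.28 TPM (log2 change -1.28 ± 0.16, limma adjusted p = 2.39e-05). The order of the libraries was close to that of Oat, with control 5 lowest and control 6 highest among the controls.

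Across libraries Oat and Lhpp varied together. Pearson's r was 0.99 over the 6 controls (Spearman's rho 0.94, exact permutation p = 0.00278 for r) and 0.94 over the 6 SAP libraries (rho 0.83, exact permutation p = 0.0111). Adjusted over the 90 relations computed among members within groups, these p-values became 0.0833 and 0.143 (exact permutation), so neither passed the threshold, and 0 of the 90 did. Without the 2 libraries farthest from the Oat median, r was 0.97 in control and 0.79 in SAP. The ratio of Oat to Lhpp TPM was 11.2 ± 1.14 in control (9.04 to 12.3) and 7.94 ± 0.489 in SAP (7.37 to 8.57). Oat therefore had the larger relative fall of the pair, and the ratios of the groups did not overlap.

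**Figure D2:**
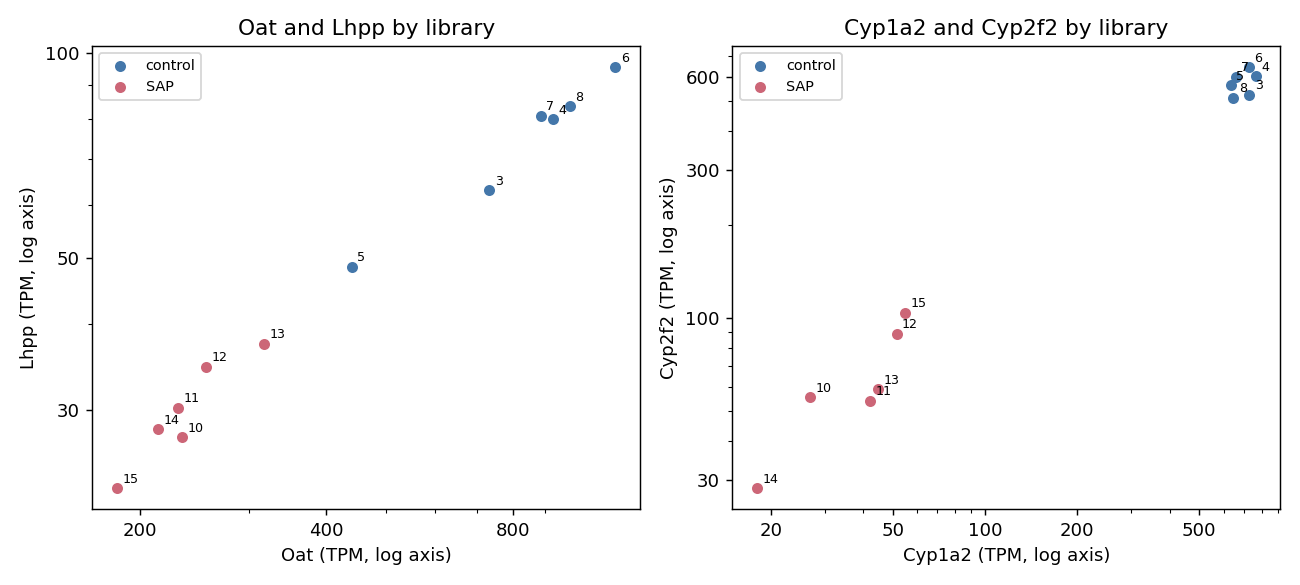
TPM of Oat against Lhpp (left) and of Cyp1a2 against Cyp2f2 (right) on log axes, each point a library with its labelled number. Oat and Lhpp fall along a line in both groups with control 5 nearest to SAP, and SAP 14 is the lowest library for Cyp1a2 and Cyp2f2.

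Rgn encodes regucalcin, a calcium-binding protein and gluconolactonase, and lies at chrX:20549787-20562089. It held 1068, 942, 1148, 853, 1021 and 898 TPM in control and 263, 298, 427, 372, 174 and 324 TPM in SAP. The groups were wide apart, with means of 988 ± 111 and 310 ± 87.8 TPM (log2 change -1.72 ± 0.17, limma adjusted p = 4.91e-06). In the controls Rgn ran opposite to Oat (r -0.92, rho -1.0, exact permutation p = 0.00139 and 0.0833 after adjustment). Without the 2 libraries farthest from the Oat median r was -0.91. In SAP the sign was the other way, at an r of 0.44 (rho 0.54, exact permutation p = 0.361), and 0.97 without SAP 13 and 15.

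Slc1a2 encodes the glutamate transporter GLT-1, which in liver takes up glutamate in pericentral hepatocytes, and lies at chr2:102658659-102790784. Control values were 40.3, 36.7, 32.1, 46, 36.7 and 45.1 TPM and SAP values 20.2, 19, 26.4, 28.1, 14.7 and 17.3 TPM. Its mean went from 39.5 ± 5.39 to 20.9 ± 5.26 TPM (log2 change -0.91 ± 0.15, limma adjusted p = 2.28e-04). Control 5 was again the lowest control and SAP 14 the lowest SAP library.

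Axin2, a scaffold of the beta-catenin destruction complex and a direct Wnt target that acts in feedback, was the member that rose. It lies at chr11:108920349-108950783. Control libraries held 1.33, 1.72, 2.1, 1.64, 2 and 3.24 TPM and SAP libraries 4.66, 3.34, 3.93, 3.62, 3.29 and 4.1 TPM. The groups nearly touched, at 3.24 TPM in control 8 and 3.29 TPM in SAP 14, and the other 5 controls were at or below 2.1 TPM. The mean went from 2 ± 0.664 to 3.82 ± 0.519 TPM (log2 change 0.70 ± 0.13, 95% interval 0.42 to 0.99, limma adjusted p = 7.69e-04). It was the least abundant member in both groups. The change was 0.67 to 0.73 relative to the median gene under the scalings tried, so its direction held in all of them.

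The cytochrome P450 members had the widest spread of changes. Cyp1a2, which metabolises caffeine and aromatic amines, lies at chr9:57676937-57683703. Its values were 728, 763, 633, 724, 657 and 646 TPM in control and 26.9, 42.2, 51.5, 44.7, 18.1 and 54.9 TPM in SAP. The lowest control was above the highest SAP library by more than the range of either group. The mean was 17.4-fold lower in SAP, 39.7 ± 14.4 against 692 ± 53.2 TPM (log2 change -4.18 ± 0.22, limma adjusted p = 1.71e-08). By mean TPM it went from rank 187 to rank 1993 among all genes.

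Cyp2e1, the ethanol- and paracetamol-oxidising P450, lies at chr7:140763739-140774987 and was the most abundant member in both groups. It held 5256, 5487, 3834, 4858, 5338 and 4234 TPM in control and 2483, 3181, 3808, 3429, 1329 and 2539 TPM in SAP. Control 5 (3834 TPM) and SAP 12 (3808 TPM) almost met. The mean went from 4834 ± 666 to 2795 ± 882 TPM (log2 change -0.85 ± 0.21, limma adjusted p = 0.00509), and its rank among all genes from 26 to 50. The change was -0.47 after rescaling outside the acute-phase list (limma adjusted p = 0.0416) and -1.10 under quantile normalization (adjusted p = 2.66e-04).

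Cyp2f2, a P450 that bioactivates naphthalene and marks periportal hepatocytes, lies at chr7:27119909-27133660. It held 526, 602, 563, 646, 601 and 514 TPM in control and 55.5, 54, 88.8, 58.9, 28.2 and 104 TPM in SAP. The mean was 8.86-fold lower in SAP, 64.9 ± 27.2 against 575 ± 50.5 TPM (log2 change -3.24 ± 0.24, limma adjusted p = 3.29e-07). The antisense gene Gm15883 shares exons with it, and how strand was handled is not known, but that gene reached at most 5.92 TPM. As with Cyp1a2, the spread of Cyp2f2 relative to its mean was wide in SAP, with coefficients of variation of 36.2% for Cyp1a2 and 41.9% for Cyp2f2 and of 12.6 to 31.6% for the other 8 members. Over the 6 SAP libraries Cyp1a2 and Cyp2f2 had an r of 0.91 (rho 0.94, exact permutation p = 0.00556 and 0.125 after adjustment), and r was 1.0 without SAP 10 and 14. Over the 6 controls r was 0.38 (rho 0.43, exact permutation p = 0.439). The Cyp1a2 to Cyp2f2 ratio of TPM was 1.21 ± 0.113 in control and 0.629 ± 0.122 in SAP.

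Hsd17b13, a lipid droplet protein of hepatocytes with retinol dehydrogenase activity, lies at chr5:103955440-103977410. It held 309, 317, 362, 336, 307 and 334 TPM in control and 209, 254, 207, 231, 175 and 236 TPM in SAP. Its fall, from 328 ± 20.6 to 219 ± 27.6 TPM, was the smallest among the 9 members that fell (log2 change -0.59 ± 0.08, limma adjusted p = 8.75e-05). The size of the fall depended on scaling. Quantile normalization gave -0.21 (limma adjusted p = 0.0248). Rescaling outside the acute-phase list also gave -0.21 (limma adjusted p = 0.0216), which is -0.50 relative to the shift of the median gene.

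**Figure D3:**
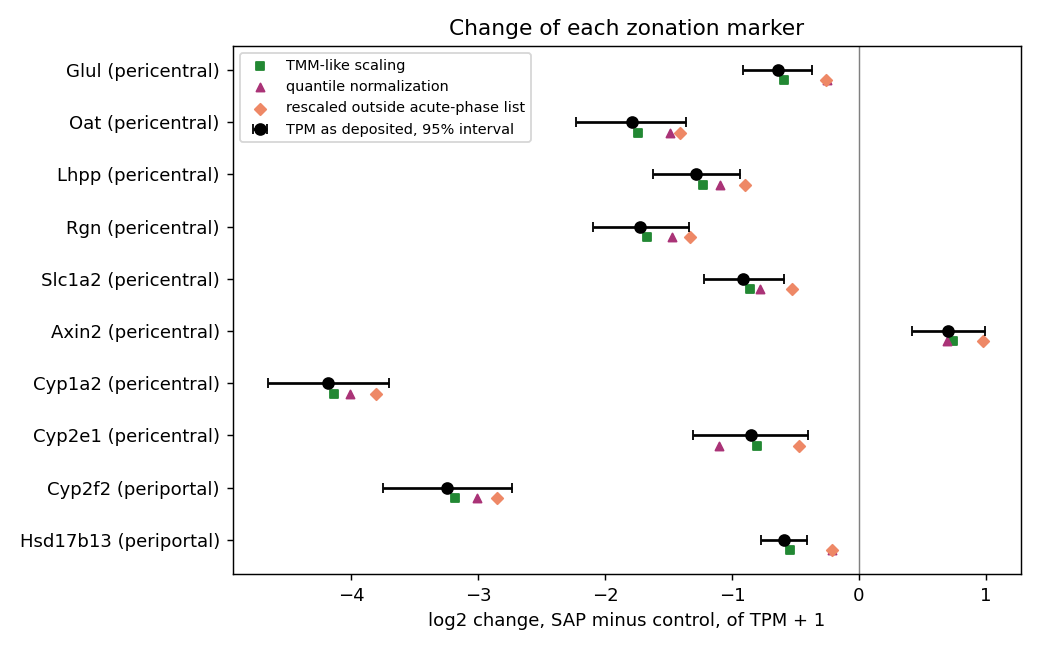
Log2 change of each marker, SAP minus control, on TPM + 1. Black points are the deposited scale with 95% intervals, and the coloured points are other scalings. Cyp1a2 and Cyp2f2 lie farthest to the left, Axin2 lies to the right of 0 under every scaling shown, and Glul and Hsd17b13 come closest to 0 among the members that fell.

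SAP 14 was the lowest SAP library for 8 of the 10 members, Oat and Lhpp being lowest in SAP 15. SAP 14 also had the largest acute-phase share, 33.9%, and low Xist, and the part of either in the low values was not tested. Leaving it out, or any other library in turn, left 9 members lower and 1 higher by limma. Among the controls, control 5 was lowest for 5 members (Oat, Lhpp, Slc1a2, Cyp1a2 and Cyp2e1).

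The members' levels kept a similar order in both groups, with Cyp1a2 and Cyp2f2 moving down. From high to low the control order was Cyp2e1, Rgn, Oat, Cyp1a2, Cyp2f2, Hsd17b13, Glul, Lhpp, Slc1a2 and Axin2. Neighbours whose libraries overlapped were Rgn and Oat, Oat and Cyp1a2, Cyp1a2 and Cyp2f2, and Hsd17b13 and Glul. In SAP the order was Cyp2e1, Rgn, Oat, Hsd17b13, Glul, Cyp2f2, Cyp1a2, Lhpp, Slc1a2 and Axin2. There, the neighbours that did not overlap were Cyp2e1 and Rgn, Glul and Cyp2f2, and Slc1a2 and Axin2. Cyp1a2, Cyp2e1 and Cyp2f2 together took 0.613 ± 0.0733% of TPM in control and 0.291 ± 0.0913% in SAP.

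Whether pericentral markers changed differently from periportal ones was tested on the log2 difference between members within each library, for the 16 pairs of a pericentral and a periportal member. Multiplying a library by a factor leaves this difference as it is, apart from the pseudocount, whereas quantile normalization can change it. The answer differed between the periportal partners. Against Cyp2f2, the 7 pericentral members other than Cyp1a2 gained 1.44 (Oat) to 3.94 (Axin2) in SAP, and Cyp1a2 lost ground by -0.94. All 8 passed, with exact two-sided permutation p-values, adjusted over the 16 pairs, of 0.00346 for 7 pairs and 0.00945 for Oat.

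Against Hsd17b13 the pericentral members split. Cyp1a2 (-3.59), Oat (-1.21), Rgn (-1.13) and Lhpp (-0.69) lost ground and Axin2 gained 1.29, with exact permutation p-values adjusted over the pairs of 0.00346 for Cyp1a2, Rgn and Axin2, 0.0115 for Oat and 0.016 for Lhpp. Differences that did not pass were -0.05 for Glul (adjusted exact permutation p = 0.695), -0.26 for Cyp2e1 (0.284) and -0.32 for Slc1a2 (0.0989, and 0.0495 without control 5). Under quantile normalization, run on the pairs after the data were seen, the last 2 passed, Cyp2e1 at -0.89 (adjusted exact permutation p = 0.00577) and Slc1a2 at -0.57 (0.0139), so 15 pairs passed in all. On the deposited scale 8 pairs moved towards the pericentral member, 5 towards the periportal member and 3 did not pass. The pairs reuse the same 2 periportal genes, so they are not independent and their counts do not measure the zones. All of the 8 but Axin2 against Hsd17b13 had Cyp2f2 as partner. The smallest p that 924 arrangements can give is 0.00216. In the high Xist libraries alone no pair could pass, since the smallest possible p there is 0.0952.

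**Figure D4:**
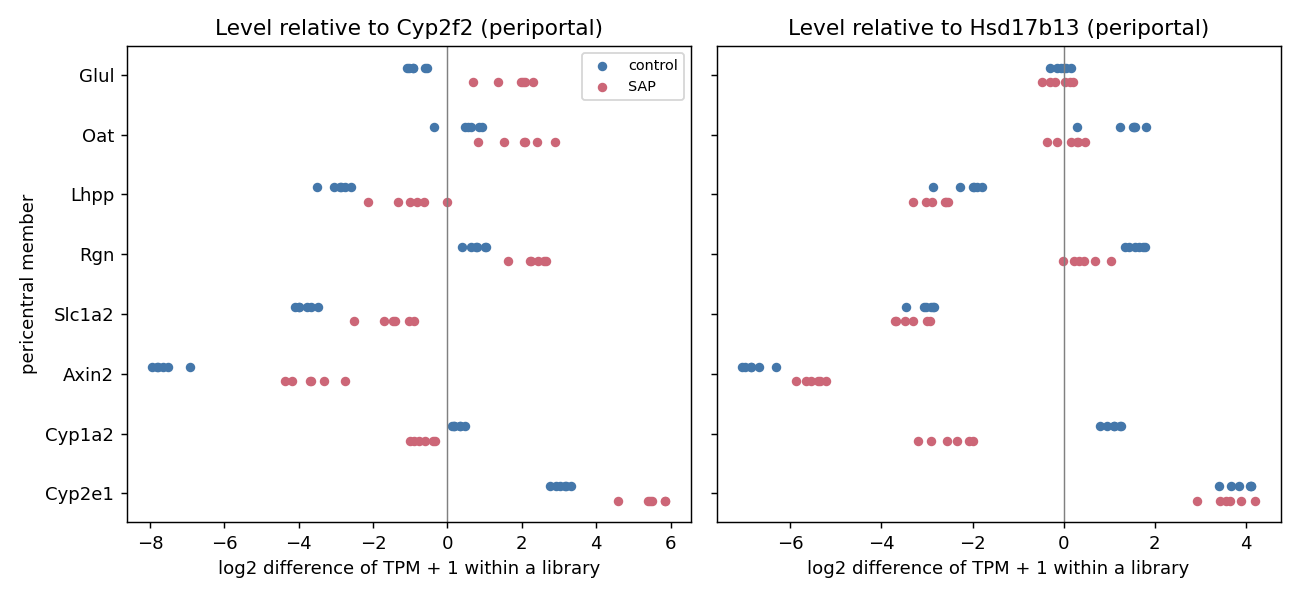
Log2 difference of TPM + 1 between each pericentral member and Cyp2f2 (left) or Hsd17b13 (right) within each library, with control in blue and SAP in red. Relative to Cyp2f2 the SAP points lie to the right of the control points for all members but Cyp1a2, with some overlap for Oat, and relative to Hsd17b13 the groups lie on each other for Glul and farthest apart for Cyp1a2.

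The lists of Wnt pathway genes around Axin2 had median changes near 0, as did all tested genes (-0.03). As background to the counts below, 19.5% of all tested genes were higher and 25.0% lower. Of 18 ligands, R-spondins and receptors 12 were tested, of which 3 rose and 2 fell (median 0.12). Wnt2, a ligand of the central vein endothelium, was at 2.22 ± 0.137 TPM in control and 1.89 ± 0.242 TPM in SAP (log2 change -0.16, limma adjusted p = 0.126, and 0.10 after rescaling outside the acute-phase list). That rescaling put the median of all tested genes at 0.29. Wnt9b, the other central vein ligand, and the R-spondin receptor gene Lgr5 were too low to test, with means of 0.5 and 0.585 TPM for Wnt9b and 0.962 and 0.872 TPM for Lgr5, control and SAP. The Wnt receptor gene Fzd7 rose by 0.59 (limma adjusted p = 0.00265). The R-spondin receptor gene Lgr4 fell by 0.39 (limma adjusted p = 0.00594), a call that was lost after rescaling (-0.05, adjusted p = 0.619) and in the high Xist libraries alone (-0.24, adjusted p = 0.156). The co-receptor gene Lrp5 had a change of -0.32 (limma adjusted p = 0.0214), which was 0.05 after rescaling outside the acute-phase list and lost its call without control 6 (adjusted p = 0.0501). The R-spondin gene Rspo3 (0.26, limma adjusted p = 0.03) and the receptor gene Fzd5 (0.30, adjusted p = 0.0417) passed by little: each lost its call when any of several single libraries was left out, 6 for Rspo3 (control 3, 4, 5 and 7, SAP 10 and 12) and 10 for Fzd5 (all but control 7 and SAP 14). The central vein endothelium markers summed to 6.24 to 8.51 TPM in control and 7 to 10.5 TPM in SAP.

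Among the destruction complex and nuclear partners of beta-catenin, 2 of 15 tested genes rose and 2 fell (median 0.01). Tcf7l1, a TCF factor known mainly as a repressor, fell from 9.65 to 2.59 TPM (log2 change -1.56, limma adjusted p = 1.37e-06). The Dishevelled genes went in opposite directions, Dvl3 by 0.41 (limma adjusted p = 0.00459) and Dvl1 by -0.72 (adjusted p = 0.00742). The Dvl1 call was lost after rescaling (-0.35, limma adjusted p = 0.0913) and in the high Xist libraries alone (-0.32, adjusted p = 0.0544). Axin1, the constitutive relative of Axin2, was at the threshold (0.20, limma adjusted p = 0.0491) and lost its call in 8 of 12 fits that left out 1 library (all but those without control 3, control 5, SAP 11 or SAP 13). It was 0.55 after rescaling (limma adjusted p = 1.07e-04) and 0.25 with TMM-like scaling (0.017). Ctnnb1, which encodes beta-catenin, was at 108 TPM in control and 97.5 TPM in SAP (-0.15, limma adjusted p = 0.0801). Its change was 0.14 (limma adjusted p = 0.0566) under quantile normalization. After rescaling it was called higher at 0.23 (limma adjusted p = 0.00397), below the median of all tested genes, 0.29. For Tcf7l2, the main TCF of hepatocytes, the change was -0.31 (limma adjusted p = 0.122). Without SAP 12 both passed, Ctnnb1 at -0.18 (adjusted p = 0.0492 by limma) and Tcf7l2 at -0.40 (0.0422), and Tcf7l2 also passed under quantile normalization (-0.33, 0.0363).

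Other Wnt feedback and target genes did not follow Axin2 as a group, with 4 of 11 tested higher and 2 lower (median -0.02). Rnf43, a ligase that removes Wnt receptors, rose from 2.91 to 6.04 TPM (0.84, limma adjusted p = 0.00734). Tbx3, a transcription factor of pericentral hepatocytes, rose from 5.47 to 10.8 TPM (0.88, limma adjusted p = 0.00205). Dkk3 rose by 0.56 (limma adjusted p = 8.48e-04) and Myc by 0.40 (adjusted p = 0.00725), though Myc did not pass in the high Xist libraries alone (adjusted p = 0.111). Notum, an enzyme that inactivates Wnt ligands, fell from 25.3 to 8.55 TPM (-1.58, limma adjusted p = 1.83e-04), and Tnfrsf19 fell by 0.68 (adjusted p = 0.00188). Rescaled outside the acute-phase list, the counts of the 3 Wnt lists were 8 higher and 0 lower of 12 tested, 10 and 1 of 15, and 6 and 2 of 11. Of all 11335 tested genes, 5999 were then higher and 1277 lower.

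Most of the other genes of both lobule zones fell. Of 21 other pericentral genes 15 fell and 3 rose (median -1.48), and of 18 other periportal genes 15 fell and 2 rose (median -1.59). The pericentral genes with the smallest p-values all fell: the P450 genes Cyp2c29 (-6.59) and Cyp2c50 (-4.91) and the glutathione transferase gene Gstm3, from 65.1 to 1.23 TPM (-4.90, limma adjusted p = 7.58e-10). The ammonia channel gene Rhbg fell by 0.87 (limma adjusted p = 9.30e-05). The 3 pericentral genes that rose were the dicarboxylate transporter gene Slc13a3, from 7.55 to 26.5 TPM (1.70, limma adjusted p = 4.61e-07), the taurine synthesis gene Csad (0.76, adjusted p = 0.0102) and the vasopressin receptor gene Avpr1a (0.65, adjusted p = 4.50e-04). Lect2 (-0.10) and Slco1b2 (-0.07) were among the 3 pericentral genes that did not pass. After rescaling both passed as higher, Lect2 at 0.28 (limma adjusted p = 0.028) and Slco1b2 at 0.32 (0.0121), and Slco1b2 also passed under quantile normalization (0.30, 0.0221). The rescaled median of all tested genes was itself 0.29.

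The periportal genes with the smallest p-values were the urea cycle and glutamine genes Cps1 (-2.21, limma adjusted p = 4.23e-07), Gls2 (-1.98) and Asl (-1.59), all of which fell. The 2 periportal genes that rose were Sdsl, a serine dehydratase relative (12.7 to 32.5 TPM, limma adjusted p = 5.07e-06), and the protease gene Ctsc (0.40, adjusted p = 0.0321), whose call was lost without control 6, 7 or 8 or without SAP 10, 11 or 15. Cdh1, the epithelial cadherin, did not pass (-0.37, limma adjusted p = 0.0844), but did without SAP 11 (-0.45, 0.0478) and under quantile normalization (-0.39, 0.0265). Of the 4 mid-lobular genes 3 fell: Hamp2 (-3.51), Cyp8b1 (-2.80) and Igfbp2 (-1.30). Hamp, the iron hormone hepcidin, varied between 29.2 and 2463 TPM within the controls and did not pass (1.94, limma adjusted p = 0.087); it did without control 5 (2.44, 0.0303) and after rescaling (2.32, 0.0343).

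**Figure D5:**
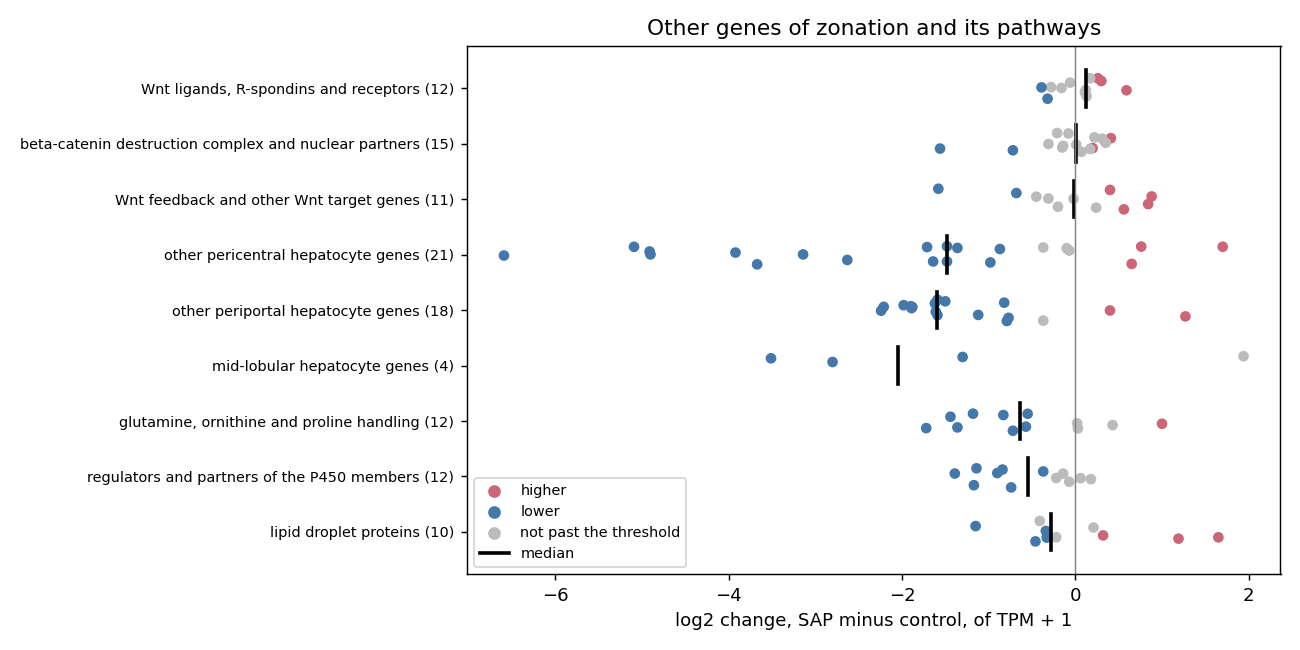
Log2 change, SAP minus control on TPM + 1, of each tested gene in the zonation and pathway lists, with genes past the threshold in red (higher) or blue (lower), the others in grey, and a bar at each list's median. Medians lie near 0 for the 3 Wnt lists (0.12, 0.01 and -0.02) and below -1 for the other pericentral, periportal and mid-lobular genes.

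Around Glul, Oat and Slc1a2, 8 of 12 tested genes of glutamine, ornithine and proline handling fell and 1 rose (median -0.64). Slc38a3, a glutamine transporter of the hepatocyte membrane, fell from 1004 to 394 TPM (-1.36, limma adjusted p = 2.96e-07), and the cationic amino acid transporter gene Slc7a2 fell by 1.18 (adjusted p = 8.45e-06). Pycr1, the last enzyme of proline synthesis, rose from 0.478 to 1.96 TPM (limma adjusted p = 4.48e-05). It reached the 1 TPM filter through SAP libraries alone (at most 0.78 TPM in control), so its rise is partly set by the filter.

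Among regulators and partners of the P450 members, 7 of 12 tested genes fell and 0 rose (median -0.55). The electron donors of the P450 system fell: Cyb5a by 1.39, Cyb5r3 by 0.84 and Por, the P450 reductase, by 1.14 (limma adjusted p = 1.11e-05, 2.62e-05 and 0.00186). Ahr, the receptor that drives Cyp1a2 transcription when bound by ligand, fell from 7.83 to 4.33 TPM (-0.74, limma adjusted p = 0.00351). Of other genes in this list, Nqo1 fell by 1.17 (limma adjusted p = 4.22e-05), and Cyp1a1 was too low to test (0.85 TPM in control, 0.4 in SAP). Tiparp and Arnt did not pass (0.06 and -0.07, limma adjusted p = 0.692 and 0.702). Whether Ahr had a part in the fall of Cyp1a2 was not tested. The nuclear receptor gene Nr1i3, which encodes CAR, fell by 0.90 (limma adjusted p = 0.00817), and by 0.65 with the Xist split as a term, where it did not pass (adjusted p = 0.0606). Hnf4a, a master regulator of hepatocyte genes, was at 182 and 208 TPM and did not pass (0.18, limma adjusted p = 0.164), but was higher under quantile normalization (0.56, 3.14e-04) and after rescaling (0.57, 2.32e-04).

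Among lipid droplet proteins, the setting of Hsd17b13, 4 of 10 tested genes fell and 3 rose (median -0.28). Hsd17b11, its closest relative on droplets, fell from 143 to 64.8 TPM (-1.15, limma adjusted p = 2.42e-06), and the lipase gene Pnpla2 fell by 0.46 (adjusted p = 2.88e-04), a call lost after rescaling (-0.09, adjusted p = 0.298). The droplet coat genes Cidec (1.65, limma adjusted p = 9.41e-07), Plin4 (1.19, adjusted p = 0.00175) and Plin2 (0.32, adjusted p = 0.0256) rose. The call of Plin2 was lost without control 3, 5 or 8, without SAP 10 or 11, and in the high Xist libraries alone. After rescaling outside the acute-phase list, 3 genes rose and 6 fell in the glutamine list, 3 rose and 6 fell among the P450 partners, and 4 rose and 1 fell among the droplet proteins. Of all 11335 tested genes, 5999 were then higher and 1277 lower.

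Among the markers of other cells, the sums of the neutrophil and monocyte lists did not overlap between the groups. Neutrophil markers summed to 3.97 to 16.1 TPM in control and 35.2 to 108 TPM in SAP (3 of 3 tested rose), and monocyte markers to 9.21 to 14.5 and 34.9 to 49 TPM (2 of 2 tested rose). Of the tested markers, Retnlg (at most 0.9 TPM in control) and Itgam (at most 0.52 TPM in control) reached the 1 TPM filter through SAP libraries alone. The filter could keep these genes only if they were higher in SAP, so the counts of risers are partly set by it. Ly6g, Mpo and Elane (at most 0.7 TPM) and Ccr2 and Ly6c2 (at most 1.89 TPM) were too low to test. Kupffer cell markers summed to 101 to 163 and 57.7 to 141 TPM (3 of 4 fell). After rescaling outside the acute-phase list, in the high Xist libraries alone and with the Xist split as a term, 0 of the 4 Kupffer cell markers passed. Portal endothelium markers summed to 11.9 to 20.1 and 6.73 to 12 TPM (1 of 3 fell). Of the stellate cell markers 2 of 4 rose and 1 fell, of the sinusoidal endothelium markers 1 of 4 rose, and of the cholangiocyte markers 0 of 2 passed. The sums of these 3 lists, and of the Kupffer cell and portal endothelium lists, overlapped between the groups. Of the pancreatic acinar markers 0 of 5 were high enough to test. They summed to 0.42 to 11 TPM in control and 0.38 to 0.99 TPM in SAP, and all 5 were highest in control 8. The part of these cells in the members' changes was not tested.

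The genes most like each member were sought among 7373 or 7374 tested genes with a mean of at least 5 TPM, by Pearson's r of log2 values less the group means over the 12 libraries. These libraries share the acute-phase and Xist differences, so r is a description. Oat and Lhpp were each other's nearest, at 0.97, followed for both by the carnitine transporter gene Slc22a5 at 0.88. Cyp1a2 was nearest to Gstz1 (0.98) and Serpind1 (0.97), Cyp2e1 to Cpn2 and Cyp4f15 (both 0.97) and Cyp2f2 to Akr1c14 and Dynll2 (both 0.97). Rgn was nearest to Akr1c6 (0.97) and Afm (0.96), Glul to Hacl1 (0.94) and Scpep1 (0.93), and Slc1a2 to Dpyd (0.94) and Slc25a15 (0.93). Hsd17b13 was nearest to Echdc1 and Pir (both 0.94). Axin2 had the least close neighbours, Avpi1 and Nasp, both at 0.84.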

How the data were processed

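Liver RNA was profiled in 12 libraries. The authors deposited values that were taken as TPM, a unit inferred from library totals of 993412 to 995793 with 2 decimals; no header or label names it. The submitters' processing notes name edgeR, without version or role. Aligner, genome build, annotation and strand handling: not given in the sources used here. Groups and numbers came from the labels. Nothing states whether libraries are separate animals, so p-values cover only the spread among these samples, which may be technical.

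Of 55487 rows, 120 repeated a symbol, and the row with the highest median was kept. Limma 3.58.1 (R 4.3.3, trend) was fitted to log2(TPM + 1) of genes at 1 TPM or more in 6 or more libraries, by group alone, two-sided, with Benjamini-Hochberg adjustment at 0.05. Pairs and correlations used exact permutation tests in scipy 1.17.1, and figures matplotlib 3.10.9. The fit was tested on simulated data. Members and lists were chosen with earlier results of these data known. Named genes were the members, the 3 tested genes of smallest adjusted p in each of 9 lists, 8 fixed by name and the 2 most like each member. Rnf43, Tbx3, Myc, Axin1, Fzd5, Slc13a3, Avpr1a, Csad, Rhbg, Lect2, Slco1b2, Sdsl, Ctsc, Cdh1, Hamp, Por, Nr1i3, Plin2 and Plin4 were chosen after their values were seen. Tiparp and Arnt were also chosen so, and were not among the genes tested for outliers. Alternatives were other scalings, filters, variance models, a pseudocount of 0.1, the Xist split, another rule for repeated symbols and leaving out each library. Quantile normalization of the pairs was added after seeing the data.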

Additional observations from a re-analysis of the deposited data

Results flagged for a closer look

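In 128 tests of 64 named genes within groups of 6 libraries, 7 had a library whose gap to the rest of its group passed Dixon's 95% critical value, and chance gives about 1 in 20. None of the 10 members was among them. In SAP 14 the dioxin receptor gene Ahr was at 2.2 TPM (4.37 to 5.23 in the other SAP libraries), the nuclear receptor gene Nr1i3 at 22 TPM (55.1 to 70.7) and Avpr1a at 13.9 TPM (19.6 to 21.4). In SAP 12 the bile acid hydroxylase gene Cyp8b1 was at 140 TPM, against 6.77 to 36.8 in the other SAP libraries. In control 5 the hepcidin gene Hamp was at 2463 TPM (29.2 to 809 in the other controls) and Cyb5r3 at 267 TPM (219 to 237). In control 7 Fzd5 was at 1.72 TPM, against 0.93 to 1.21 in the other controls.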

How the results depend on the processing

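Of 229 values of the 10 members under the alternatives, 227 kept their direction and call; the other 2 are Glul under quantile normalization and after rescaling outside the acute-phase list, given with the results. Rescaling gave 5999 genes higher and 1277 lower over all genes, and the high Xist libraries alone gave 1829 lower. Counts over all genes were 2743 higher and 2761 lower with TMM-like scaling and 2950 and 2591 with quantile normalization, against 2212 and 2832 on the deposited scale. With a mean of at least 5 TPM, 0 members were higher, since Axin2 was then not tested. Leaving out each library gave 1956 to 2452 genes higher and 2537 to 3062 lower, 1 member higher and 9 lower throughout, and 13 to 14 pairs past the threshold. In the high Xist libraries alone 0 pairs passed, because 21 arrangements cannot pass. Reversed signs were 0.14 and 0.23 for Ctnnb1 (quantile, rescaled), 0.16 and 0.28 for Lect2, 0.30 and 0.32 for Slco1b2 (also 0.00 with high Xist alone, 0.05 without SAP 14, and -0.11 to 0.05 over the libraries left out), and 0.05 for Lrp5 and 0.10 for Wnt2 (rescaled). The Glul and Hsd17b13 pair changed by 0.17 with high Xist alone and 0.02 without SAP 15 (-0.11 to 0.02 over the libraries left out). The cause of the reversed signs was not tested, and after rescaling the median of all tested genes was 0.29. With no filter on low values the calls of Rspo3, Fzd5, Axin1, Ctsc and Plin2 were lost, and with the Xist split as a term those of Lrp5, Axin1 and Nr1i3. No paired analysis was possible because the groups share no sample numbers. TPM keeps no depth, so counting error is unknown, most of all for genes near 1 TPM such as Axin2.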
